A study of Mus musculus with 8 samples.

Results

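The light phase of the mouse eye transcriptome was compared with its dark phase over all 8 libraries of a whole-eye RNA sequencing series, with both genotypes in each phase. The light group held 4 libraries, cKO and WT at ZT3 and at ZT9, and the dark group 4 libraries, cKO and WT at ZT15 and at ZT21. ZT, or zeitgeber time, counts hours from lights-on in a cycle of 12 h of light and 12 h of dark. The cKO mice were Cre-positive and lacked Nr3c1, the gene of the glucocorticoid receptor, in the retina, and the WT mice were Cre-negative. All mice were male, 12 weeks old and free of drug treatment. The Cre driver is not given in the sources used here, nor is whether the WT mice carried floxed alleles. Equal amounts of RNA from 3 mice went into each library, so no genotype and time has a repeat, and the p-values measure the spread between 8 pools around the model. The tissue field of the labels reads ciliary body and the cell type field nonpigmented ciliary epithelium, while the protocols describe whole eyes. Markers of lens took 13.8 to 22.7% of a library's counts, markers of rods 4.34 to 5.25% and markers of the ciliary epithelium 0.103 to 0.277%, and the libraries are described as whole eye below. In such a mixture, fewer cells of a type and less RNA per cell cannot be told apart. Libraries held 11763917 to 20334658 counts. Nr3c1 itself had 38.2, 35.3, 36.4 and 32.5 CPM (reads counted for a gene over the scaled library size) at ZT3, ZT9, ZT15 and ZT21 in cKO eyes, against 78.2, 145, 127 and 134 CPM in WT eyes, so every cKO library was below every WT library.

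The eye keeps daily time through clocks in the retina, the ciliary body and the cornea, and it meets the light cycle directly through its photoreceptors. Dopamine is released in the retina in the light and lowers cyclic AMP in photoreceptors through a receptor of the inhibitory class, while photoreceptors burn more energy in the dark, when their cation channels are open. The rod and cone outer segments are shed and engulfed by the pigment epithelium around the onset of light, and the ciliary epithelium secretes aqueous humour at a rate that differs between day and night. Many other transcripts in a whole eye follow feeding, body temperature and glucocorticoid release, which in mice are tied to the night.

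No gene passed the threshold between the light and dark phases in edgeR's quasi-likelihood test with genotype as a covariate (0% of 15373 genes tested, Benjamini-Hochberg adjusted p under 0.05, smallest adjusted p 0.228). At an unadjusted p under 0.05, 1604 genes were higher in the light phase (10.4%) and 784 higher in the dark phase (5.1%). DESeq2, run on the same libraries, called 62 genes higher in the light phase at an adjusted p under 0.05 (0.428% of 14488 genes with an adjusted p) and 64 higher in the dark phase (0.442%), and limma-voom called 0. The median log2 difference over all genes was 0.02. The unadjusted counts moved with single libraries. Leaving out 1 of 8 libraries gave 507 to 2479 genes for the light phase and 365 to 2033 for the dark phase, and of the 8 only leaving out cKO ZT21 moved neither count by more than 1.5 times. The counts for light and dark were 567 and 365 without cKO ZT3, 905 and 628 without WT ZT3, 2479 and 1801 without cKO ZT9 and 2420 and 2033 without WT ZT9. They were 1085 and 459 without cKO ZT15, 621 and 422 without WT ZT15 and 507 and 414 without WT ZT21. Of the 126 genes that DESeq2 called, 100 had all 4 light libraries on the same side of all 4 dark libraries. Over all genes tested, 482 (3.14%) had every light library above every dark library and 412 (2.68%) the reverse.

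Genes were sorted by whether both times of a phase agreed. In 1002 genes (6.52%) both light values were above both dark values within each genotype, and in 1012 genes (6.58%) both were below. These classes are called both-times genes here. Their members shared the direction between genotypes by construction. By contrast, 600 genes (3.9%, beside 13.1% with the same direction) had light and dark fully separated in both genotypes but in opposite directions, of which 257 were higher in light in cKO and in dark in WT, and 343 the reverse. Of the both-times genes, 693 of the light class and 594 of the dark class had an unadjusted p under 0.05, and 63 and 49 genes differed at least 2-fold. The difference in the 693 light genes had a median of 0.41 (log2) in cKO and 0.65 in WT. In the 594 dark genes it was -0.34 in cKO and -0.56 in WT.

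**Figure D1:**
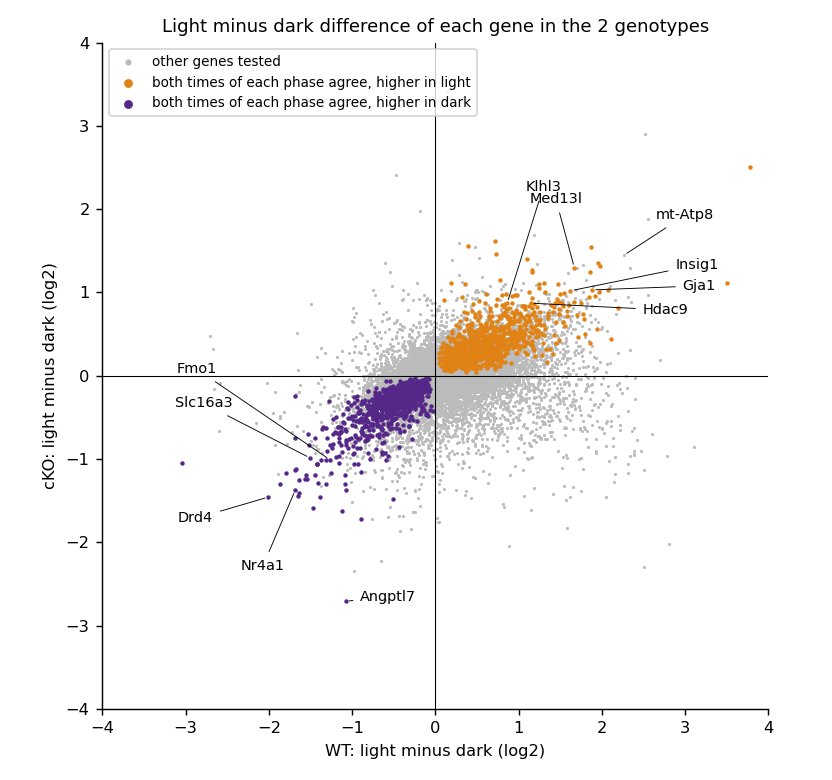
Each point is 1 of the genes tested, with its light minus dark difference (log2) in cKO on the vertical axis and in WT on the horizontal axis; orange points are the 1002 both-times genes higher in light, purple points the 1012 higher in dark, and 4 genes lie outside the axes. Over all genes, 68.2% had the same sign in both genotypes.

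The classes did not hold equal parts of the light and dark differences. Among the 784 dark-phase genes at an unadjusted p under 0.05, 75.8% were both-times genes. Among the 1604 light-phase genes, 43.2% were, and another 682 genes (42.5%) had a light value set apart at a single time, ZT3. A gene was put in that class where the same single time was the extreme of all 4 times in both genotypes and the other time of its phase overlapped the opposite phase in at least 1 genotype. ZT9 set 5 light-phase genes apart in this way, ZT15 set 12 apart and ZT21 set 35 apart. The light times also differed from each other more than the dark times did. ZT3 was higher than ZT9 in 2189 genes (14.2%) and lower in 2383 (15.5%) at an unadjusted p under 0.05, whereas ZT15 was higher than ZT21 in 194 genes (1.26%) and lower in 129 (0.839%). The median absolute difference was 0.33 (log2) between the 2 light times, 0.11 between the 2 dark times and 0.22 between the phases. The smallest adjusted p was 0.0718 for ZT3 against ZT9 and 1 when rounded for ZT15 against ZT21, so neither contrast held a called gene.

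**Figure D2:**
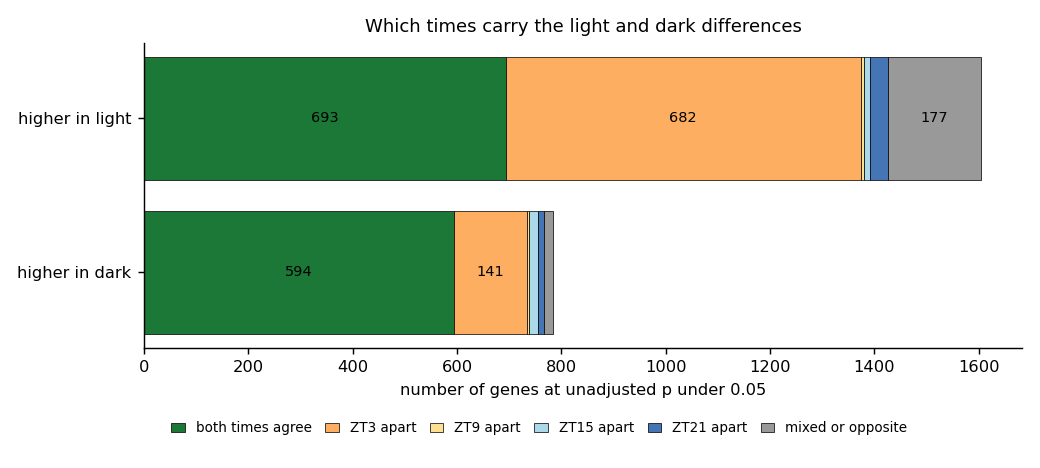
Bars count the genes at an unadjusted p under 0.05 that were higher in light (upper bar, 1604 genes) or higher in dark (lower bar, 784 genes), split by which times carried the difference. The ZT3-apart part holds 682 genes of the upper bar and 141 of the lower.

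The light-phase count fell without ZT3 and rose without ZT9. Without both ZT3 libraries, 468 genes were higher in light (2.97%) and 479 higher in dark (3.04%) at an unadjusted p under 0.05, and none passed the adjusted threshold. The fall was not particular to ZT3. At the same level the counts for light and dark were 314 and 164 without both ZT15 libraries and 432 and 236 without both ZT21 libraries. Without both ZT9 libraries, which leaves ZT3 alone against the dark phase, 3013 genes were higher and 2893 lower at an adjusted p under 0.05. The 2 ZT3 libraries deviated together from the mean of all 8 libraries (Pearson r = 0.72 across genes, which are not independent replicates). The 2 ZT9 libraries did not (r = -0.51). Genotype differences were not removed from these deviations, so the r values hold both genotype and time. The genes also differed in size. Genes in the light both-times class at an unadjusted p under 0.05 had a median exonic length of 5.58 kb, those in the dark class 3.7 kb and all genes tested 4.4 kb (GENCODE M21), and the ZT3-apart light genes 6.42 kb. With the trend on exonic length taken out of each library, 1425 genes were higher in light and 934 higher in dark at an unadjusted p under 0.05.

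Among both-times genes with a gene name and a mean of at least 2 CPM, the 12 light-phase genes with the smallest p were Klhl3, Wisp1, Slc4a11, Dio2, Hdac9, Ammecr1, Pspc1, Trpc1, Shroom2, Kdm4c, Dyrk2 and Med13l. In each of them every light library was above every dark library. DESeq2 called all 12, with adjusted p from 1.15e-07 for Klhl3 to 0.00141 for Pspc1, and edgeR's adjusted p lay between 0.228 and 0.281. Klhl3 (chr13:58000228-58113592, minus strand), an adaptor that brings WNK kinases to a ubiquitin ligase (gene coordinates here are those of GENCODE M21, build GRCm38), had 24.6 and 23.8 CPM in cKO at ZT3 and ZT9 and 21.3 and 22.8 CPM in WT in the light phase, against 12.8 and 13.6 CPM in cKO at ZT15 and ZT21 and 12.3 and 12 CPM in WT in the dark phase. The 4 light values and the 4 dark values of Klhl3 each lay close together, and the log2 difference was 0.87 ± 0.10 (SE), with 0.87 in cKO and 0.86 in WT. Wisp1, which encodes a secreted matrix protein of the Wnt response, had 38.2 and 36.2 CPM in cKO at ZT3 and ZT9 and 40.9 and 33 CPM in WT in the light phase, against 18.4 and 20.8 CPM in cKO at ZT15 and ZT21 and 23.1 and 21.3 CPM in WT in the dark phase. Its log2 difference was 0.83 ± 0.11.

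Slc4a11, a membrane transporter needed by the corneal endothelium, had 37 and 36.5 CPM in cKO at ZT3 and ZT9 and 37.1 and 27.5 CPM in WT in the light phase, against 21.8 and 22.1 CPM in cKO at ZT15 and ZT21 and 18.1 and 17.9 CPM in WT in the dark phase. WT ZT9 was the lowest light library of Slc4a11 and still above every dark library. Dio2 (chr12:90724552-90738438, minus strand), the deiodinase that turns thyroxine into the active thyroid hormone, had 19.2 and 17.8 CPM in cKO at ZT3 and ZT9 and 18.6 and 18.2 CPM in WT in the light phase, against 11.1 and 9.95 CPM in cKO at ZT15 and ZT21 and 12.9 and 10.6 CPM in WT in the dark phase. The Dio2 libraries differed little within a phase, and the log2 difference was 0.73 ± 0.12. The cation channel subunit Trpc1 averaged 63.7 ± 6.94 CPM in light and 36 ± 6.46 CPM in dark (SD, n = 4 each). Shroom2, an actin-binding protein of pigmented and other epithelia, averaged 45 ± 0.691 and 27.9 ± 4.44 CPM in the same order of phases.

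Hdac9, a histone deacetylase, had 50.4 and 37.8 CPM in cKO at ZT3 and ZT9 and 53.7 and 41 CPM in WT in the light phase, against 26.4 and 21.8 CPM in cKO at ZT15 and ZT21 and 24.6 and 18.3 CPM in WT in the dark phase. Its log2 difference was 1.01 ± 0.17, about 2-fold, with both genotypes at their highest at ZT3. Kdm4c, a histone demethylase, averaged 111 ± 14.6 CPM in light and 67.9 ± 4.87 CPM in dark. Med13l, a subunit of the kinase module of Mediator, had 141 and 61.6 CPM in cKO at ZT3 and ZT9 and 175 and 117 CPM in WT in the light phase, against 43.4 and 39 CPM in cKO at ZT15 and ZT21 and 54.1 and 37.7 CPM in WT in the dark phase. Med13l had the largest difference of the 12 (1.48 ± 0.27) and also the widest spread within light, its ZT3 minus ZT9 difference being 0.87. The paraspeckle protein gene Pspc1 (log2 difference 0.67 ± 0.11), the kinase gene Dyrk2 (0.49 ± 0.09) and Ammecr1 (1.01 ± 0.17) completed the group.

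By the same rule, the 12 dark-phase genes with the smallest p were Fmo1, Gnaz, Slc16a3, Drd4, Vax2, Ier2, Ccdc117, Aqp1, Fst, Nr4a1, Trib3 and Fam212b. Every light library was below every dark library in each of them, and DESeq2 called all 12. Drd4 (chr7:141292006-141296464, plus strand), a dopamine receptor of photoreceptors that lowers cyclic AMP, had 101 and 129 CPM in cKO at ZT3 and ZT9 and 68.9 and 141 CPM in WT in the light phase, against 297 and 337 CPM in cKO at ZT15 and ZT21 and 339.8 and 502 CPM in WT in the dark phase. The dark level of Drd4 was highest at ZT21 in both genotypes, and the log2 difference was -1.73 ± 0.26 (-1.46 in cKO and -2.01 in WT, edgeR adjusted p 0.233, DESeq2 adjusted p 1.15e-07). Fmo1, a flavin-containing monooxygenase, had 10.8 and 9.76 CPM in cKO at ZT3 and ZT9 and 9.1 and 11.7 CPM in WT in the light phase, against 21.8 and 19.6 CPM in cKO at ZT15 and ZT21 and 27.9 and 22.1 CPM in WT in the dark phase. Its difference was -1.14 ± 0.14 with an edgeR adjusted p of 0.233. Gnaz, an inhibitory G protein alpha subunit, averaged 67.4 ± 3.86 CPM in light and 112 ± 7.3 CPM in dark (SD, n = 4 each).

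Slc16a3 (chr11:120948480-120960868, plus strand), which exports lactate from glycolytic cells, had 32.5 and 43.5 CPM in cKO at ZT3 and ZT9 and 23.4 and 30.9 CPM in WT in the light phase, against 87.5 and 63.4 CPM in cKO at ZT15 and ZT21 and 82 and 71.8 CPM in WT in the dark phase. The groups of Slc16a3 were -1.24 ± 0.18 apart on the log2 scale. The water channel gene Aqp1 (chr6:55336432-55348555, plus strand) had 219.6 and 247 CPM in cKO at ZT3 and ZT9 and 197 and 182 CPM in WT in the light phase, against 356 and 355 CPM in cKO at ZT15 and ZT21 and 341 and 397 CPM in WT in the dark phase. Aqp1 was -0.78 ± 0.13 apart, with -0.61 in cKO and -0.96 in WT. Vax2, a homeobox gene of the ventral retina, averaged 24.7 ± 4.07 CPM in light and 47.4 ± 4.82 CPM in dark. Fst, the secreted activin antagonist follistatin, was low throughout, at 3.86 ± 1.17 CPM in light and 11.1 ± 2.42 CPM in dark. Ccdc117 and Fam212b completed the group, with log2 differences of -0.75 ± 0.12 for Ccdc117 and -0.61 ± 0.11 for Fam212b.

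**Figure D3:**
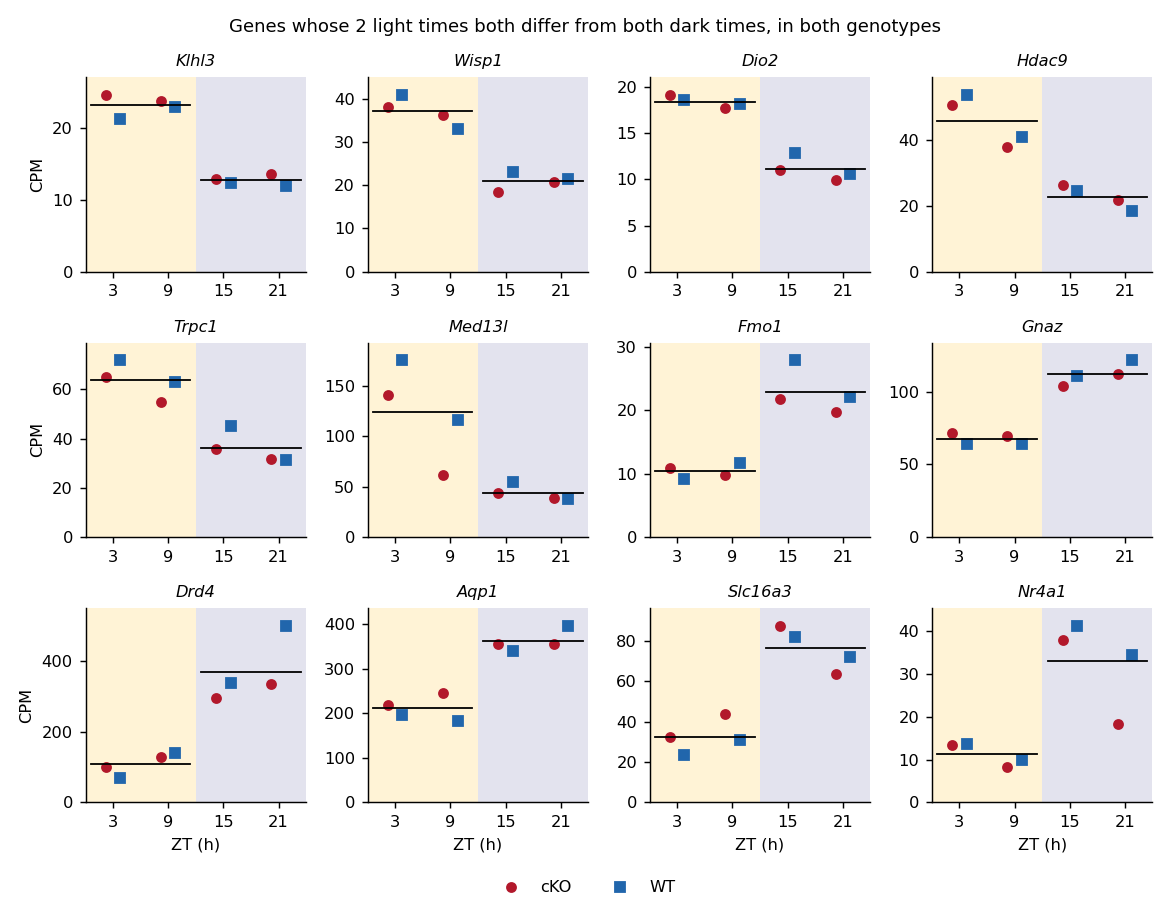
CPM of 6 light-phase and 6 dark-phase both-times genes in each library, by ZT, with cKO as circles set left of WT squares, the light phase shaded yellow, the dark phase shaded grey and lines at the mean of the 4 libraries of a phase. In each panel the 4 light libraries lie on one side of the 4 dark libraries, as for Drd4 with 68.9 to 141 CPM in light and 297 to 502 CPM in dark.

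Promoters of 4 genes are shown, chosen because they carry exact copies of motifs tied to daily or stress-driven transcription. They are RefSeq sequences of build GRCm38.p6, from 250 bases before to 50 bases after a start, written 5′ to 3′ on the gene's strand with motif matches in capitals. The motifs were the E-box CACGTG of the clock activators (in 7.15% of all 32851 promoters of this length), the D-box TTATGTAA (0.938%), the cyclic AMP response element TGACGTCA (1.79%) and the heat shock element TTCNNGAA (8.52%), searched on both strands. No match overlapped another in the promoters shown. The Kdm4c promoter at chr4:74251629-74251928 (plus strand) held 2 E-boxes, starting 85 and 53 bases before the start. The Dio2 promoter at chr12:90738989-90739288 (minus strand) held a cyclic AMP response element 95 bases before the start. The Ldha promoter at chr7:46845554-46845853 (plus strand) held 2 E-boxes, 145 and 48 bases before the start, and a cyclic AMP response element 12 bases before it. The Drd4 promoter at chr7:141291768-141292067 (plus strand) held a heat shock element 222 bases before the start. Kdm4c and Ldha each have a second RefSeq start whose window held none of these motifs. Among other both-times genes named above, the windows of Klhl3, Ammecr1, Pspc1, Trpc1, Dyrk2, Med13l, Slc16a3, Aqp1, Nr4a1 and Trib3 held none either. Hdac9 and Shroom2 had a heat shock element in some but not all of their windows. A match describes letters in these windows and shows no binding.
Kdm4c: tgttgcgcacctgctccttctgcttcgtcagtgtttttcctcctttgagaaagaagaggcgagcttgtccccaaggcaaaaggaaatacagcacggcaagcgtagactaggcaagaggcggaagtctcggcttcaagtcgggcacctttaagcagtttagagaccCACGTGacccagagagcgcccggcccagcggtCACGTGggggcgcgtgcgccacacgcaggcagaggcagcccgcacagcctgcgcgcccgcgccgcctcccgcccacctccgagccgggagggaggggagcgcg
Dio2: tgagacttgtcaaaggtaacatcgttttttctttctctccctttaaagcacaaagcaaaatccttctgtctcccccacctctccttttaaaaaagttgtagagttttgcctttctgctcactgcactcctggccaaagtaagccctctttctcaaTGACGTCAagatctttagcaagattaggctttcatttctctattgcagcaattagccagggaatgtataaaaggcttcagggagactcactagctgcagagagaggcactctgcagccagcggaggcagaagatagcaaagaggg
Ldha: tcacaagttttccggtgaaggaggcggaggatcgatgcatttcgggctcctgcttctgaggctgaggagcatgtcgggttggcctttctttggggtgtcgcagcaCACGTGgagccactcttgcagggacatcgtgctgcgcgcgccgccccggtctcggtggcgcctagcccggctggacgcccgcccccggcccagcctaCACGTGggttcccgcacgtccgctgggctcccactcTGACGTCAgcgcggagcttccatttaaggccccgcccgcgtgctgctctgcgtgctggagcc
Drd4: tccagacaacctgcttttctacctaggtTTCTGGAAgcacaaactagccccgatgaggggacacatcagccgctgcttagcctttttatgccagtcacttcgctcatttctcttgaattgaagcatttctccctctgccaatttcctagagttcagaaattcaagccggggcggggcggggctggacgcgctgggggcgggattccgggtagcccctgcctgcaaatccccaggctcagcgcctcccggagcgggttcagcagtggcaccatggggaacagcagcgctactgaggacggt

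Immediate early genes are transcribed within minutes of a stimulus, through serum response and cyclic AMP response elements. Of 25 members tested, 7 were higher in the dark phase and 0 higher in the light phase at an unadjusted p under 0.05, beside 5.1% and 10.4% of all genes. The whole list was split, with 12 positive and 13 negative differences. Its median log2 difference was -0.18, and the medians within a genotype were -0.09 in cKO and -0.03 in WT. The 7 dark-phase members were Ier2, Nr4a1, Egr1, Fos, Junb, Klf6 and Ier3, of which DESeq2 called Ier2, Nr4a1 and Egr1. Egr1, a zinc finger transcription factor, had 18.7 and 11.9 CPM in cKO at ZT3 and ZT9 and 16.4 and 13.7 CPM in WT in the light phase, against 56.6 and 19.2 CPM in cKO at ZT15 and ZT21 and 70.9 and 38.6 CPM in WT in the dark phase. Its dark values were higher at ZT15 than at ZT21 in both genotypes (ZT15 minus ZT21 1.18, unadjusted p 0.00272), and all dark values were above all light values. Nr4a1 (chr15:101254269-101274795, plus strand), an orphan nuclear receptor, had 13.5 and 8.21 CPM in cKO at ZT3 and ZT9 and 13.6 and 9.87 CPM in WT in the light phase, against 37.9 and 18.4 CPM in cKO at ZT15 and ZT21 and 41.3 and 34.4 CPM in WT in the dark phase. Nr4a1 too was at its peak at ZT15, with a light minus dark difference of -1.53 ± 0.26. Fos, a subunit of the AP-1 factor, averaged 12.2 ± 1.58 CPM in light and 22.6 ± 7 CPM in dark (SD, n = 4 each), and its lowest dark value (13.7 CPM, cKO ZT21) was close to its highest light value (13.6 CPM, cKO ZT3). Ier2 was steady within each phase, at 13.7 ± 1.28 CPM in light and 21.9 ± 1.26 CPM in dark. Without both ZT3 libraries, 8 members were higher in dark and 0 in light, beside 3.04% and 2.97% of all genes.

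In dopamine, melatonin and cyclic AMP signalling, 1 of 19 members was higher in light and 2 were higher in dark at an unadjusted p under 0.05. Over all genes these shares were 10.4% and 5.1%, and with so few members both counts are near them. Beside Drd4, the dopamine autoreceptor gene Drd2 had 14.2 and 22.7 CPM in cKO at ZT3 and ZT9 and 14 and 18 CPM in WT in the light phase, against 26.2 and 25.8 CPM in cKO at ZT15 and ZT21 and 23.9 and 29.6 CPM in WT in the dark phase. Each dark value was above each light value, with a log2 difference of -0.62 ± 0.17. Vip, a neuropeptide of amacrine cells, had 4.86 ± 0.46 CPM in light and 3.23 ± 0.579 CPM in dark, a difference of 0.60 ± 0.16.

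Of 30 genes of glycolysis and of the hypoxia response, 7 were lower in light and 3 higher at an unadjusted p under 0.05. Over all genes these shares were 5.1% and 10.4%, so the 3 were about the all-gene share. The list's median was -0.18. The 7 were Slc16a3, Ldha, Egln1, Pfkl, Hk2, Bnip3 and Pgk1, and the 3 were Hif1a, Pdk1 and Slc16a1. Ldha, the lactate dehydrogenase subunit that favours lactate, had 704 and 766 CPM in cKO at ZT3 and ZT9 and 573 and 533 CPM in WT in the light phase, against 1036 and 936 CPM in cKO at ZT15 and ZT21 and 935 and 974 CPM in WT in the dark phase. The lowest dark value of Ldha exceeded its highest light value (log2 difference -0.61 ± 0.13, DESeq2 adjusted p 0.00127). Egln1, the oxygen-sensing prolyl hydroxylase that marks hypoxia-inducible factor for breakdown, averaged 98 ± 18.6 CPM in light and 157 ± 13.3 CPM in dark. Pfkl, a phosphofructokinase subunit, averaged 248 ± 45.5 and 339 ± 47.9 CPM in light and dark, with light below dark within each genotype and overlap of the phases across genotypes. With ZT3 left out, 7 members were lower in light and 0 higher at the same level, beside 3.04% and 2.97% of all genes.

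Stress proteins of the cytosol and the endoplasmic reticulum formed the list with the most dark-phase members by count at an unadjusted p under 0.05. Of 29 members, 9 were higher in dark and 2 higher in light at that level, beside 5.1% and 10.4% of all genes. In the whole list 24 had a negative and 5 a positive difference, and the median was -0.21. Together the list took 0.658 to 0.758% of counts in light libraries and 0.865 to 1.04% in dark libraries, with no overlap. The chaperone gene Hsp90aa1 had 1608 and 1652 CPM in cKO at ZT3 and ZT9 and 1299 and 1597 CPM in WT in the light phase, against 2102 and 2443 CPM in cKO at ZT15 and ZT21 and 2442 and 3236 CPM in WT in the dark phase. Its log2 difference was -0.73 ± 0.18 (DESeq2 adjusted p 0.00719). Hspa1a, the inducible cytosolic chaperone of the same response, averaged 44.4 ± 4.24 CPM in light and 58.6 ± 4.32 CPM in dark (SD, n = 4 each), although it shares near-identical sequence with Hspa1b and its counts are uncertain for that reason. Xbp1, a transcription factor of the unfolded protein response, had 77.3 and 79.9 CPM in cKO at ZT3 and ZT9 and 68.6 and 91.1 CPM in WT in the light phase, against 115 and 102 CPM in cKO at ZT15 and ZT21 and 138 and 142 CPM in WT in the dark phase. DESeq2 called Xbp1 (adjusted p 0.00534) and Trib3, a pseudokinase induced by stress, which stood at 4.52 ± 0.45 CPM in light and 8.86 ± 1.48 CPM in dark. The endoplasmic reticulum members did not share a direction. Hspa5, the main chaperone there, averaged 262 ± 16.3 CPM in light and 349 ± 34.9 CPM in dark, while Pdia4 and Hyou1, also of the endoplasmic reticulum, were set apart upward at ZT3. Pdia4 had 62.6 and 27 CPM in cKO at ZT3 and ZT9 and 65.4 and 10.8 CPM in WT in the light phase, against 16.7 and 23.7 CPM in cKO at ZT15 and ZT21 and 13.4 and 8.54 CPM in WT in the dark phase.

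Skeletal muscle markers were lower in light together with these groups. All 11 muscle markers tested had negative differences, 5 at an unadjusted p under 0.05, beside 5.1% of all genes higher in dark. Their median was -0.41 (-0.15 in cKO and -0.65 in WT). Their summed share was 0.0675 to 0.0967% of counts in light and 0.097 to 0.124% in dark, and no tested marker was at 0 in a library. Myh1, a fast myosin heavy chain, had 37.8 and 67.6 CPM in cKO at ZT3 and ZT9 and 34.5 and 52.1 CPM in WT in the light phase, against 83.1 and 85.1 CPM in cKO at ZT15 and ZT21 and 112 and 77.3 CPM in WT in the dark phase. Every light value of Myh1 was below every dark value (log2 difference -0.90 ± 0.23, DESeq2 adjusted p 0.0411). Myh2 (-0.40 ± 0.13), Myh4 (-0.61 ± 0.20) and the muscle calcium pump gene Atp2a1 (-0.41 ± 0.16) were also lower in light at an unadjusted p under 0.05. Ldha, Slc16a3 and Pfkl are expressed in muscle as well as in the retina, and the part of muscle RNA in their differences was not tested. Erythrocyte markers were lower in light in 7 of 7 members (median -1.18, with -0.45 in cKO and -1.82 in WT). Of them 1 had an unadjusted p under 0.05, beside 5.1% of all genes higher in dark. They took 0.0682 to 0.242% of counts in the light libraries. In the dark libraries they took 1.11% in WT ZT15 and 0.0912 to 0.184% in the other 3, inside the range of the light libraries.

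Of 27 genes of sterol synthesis tested, 8 were higher in light and 0 higher in dark at an unadjusted p under 0.05. Over all genes these shares were 10.4% and 5.1%. A positive difference was found in 24 members (median 0.18). Insig1, which holds the sterol-sensing machinery in the endoplasmic reticulum, had 109.6 and 53.2 CPM in cKO at ZT3 and ZT9 and 118 and 27.5 CPM in WT in the light phase, against 32.6 and 47.6 CPM in cKO at ZT15 and ZT21 and 26.3 and 21.1 CPM in WT in the dark phase. Its ZT3 values were far above its ZT9 values (unadjusted p 0.00116 for ZT3 against ZT9), and in WT the ZT9 value was just above the ZT15 value. Stard4, a sterol carrier, averaged 25.8 ± 4.16 CPM in light and 18.5 ± 2.38 CPM in dark (SD, n = 4 each), and Hsd17b7, an enzyme of the late pathway, 14.2 ± 1.36 and 10.1 ± 1.41 CPM. Without both ZT3 libraries, 0 members of the list were higher or lower at an unadjusted p under 0.05, beside 2.97% and 3.04% of all genes. In the full set 11 members were higher at ZT3 than at ZT9 at that level, beside 14.2% of all genes.

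Transcripts of the mitochondrial genome gave the highest list median. All 13 had positive differences (median 1.09), 11 at an unadjusted p under 0.05, beside 10.4% of all genes higher in light. All 13 were also higher at ZT3 than at ZT9 at an unadjusted p under 0.05, beside 14.2% of all genes. Their share of counts was 1.31 to 6.11% in light and 1.09 to 3.63% in dark. mt-Atp6, a subunit of the ATP synthase, had 6557 and 3379.7 CPM in cKO at ZT3 and ZT9 and 5475 and 781 CPM in WT in the light phase, against 1635 and 3137 CPM in cKO at ZT15 and ZT21 and 850.1 and 619 CPM in WT in the dark phase. The WT value of mt-Atp6 at ZT9 was below the WT value at ZT15, so the light phase was not uniform. mt-Nd4l, a subunit of the first respiratory complex, averaged 327 ± 175 CPM in light and 153 ± 75.4 CPM in dark. The corresponding log2 differences were 1.85 ± 0.64 for mt-Atp8 and 1.44 ± 0.53 for mt-Cytb. With ZT3 left out, no mitochondrial transcript was at an unadjusted p under 0.05, beside 2.97% of all genes higher in light and 3.04% higher in dark. Ribosomal protein genes ran the other way, with 34 of 35 lower in light and a median difference of -0.24. Of them 1, Fau (-0.40 ± 0.17), had an unadjusted p under 0.05, a smaller share than the 5.1% of all genes higher in dark. Members with near-identical copies in the genome are uncertain.

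All 10 ciliary markers tested were higher in light (median 0.45), and 3 were both-times genes, beside 6.52% of all genes. Of the 10, 4 had an unadjusted p under 0.05, beside 10.4% of all genes higher in light. Without both ZT3 libraries 0 were at that level, beside 2.97% of all genes. Gja1, a gap junction protein that couples the layers of the ciliary epithelium, had 187 and 90.4 CPM in cKO at ZT3 and ZT9 and 214 and 45.8 CPM in WT in the light phase, against 51.4 and 84.4 CPM in cKO at ZT15 and ZT21 and 42.5 and 28 CPM in WT in the dark phase. The 2 ZT3 libraries of Gja1 stood far above the rest, while the WT ZT9 value was below the cKO value at ZT21. Ptgds, a prostaglandin synthase and retinoid carrier, averaged 769 ± 482 CPM in light and 327 ± 144 CPM in dark, and Optc, a vitreous proteoglycan, 39.5 ± 19.7 and 22.3 ± 7.97 CPM. Opcml, a cell adhesion molecule, had a difference of 0.78 ± 0.22. Of 9 immune markers 6 had a positive and 3 a negative difference. At an unadjusted p under 0.05, 4 were higher in light, beside 10.4% of all genes. These were Cd68, Lyz2, C1qb and Cd74, with log2 differences of 0.83 ± 0.28, 1.58 ± 0.57, 0.66 ± 0.25 and 0.78 ± 0.32. Of the 9, 2 were both-times genes higher in light, beside 6.52% of all genes. Without both ZT3 libraries 0 were higher in light at an unadjusted p under 0.05, beside 2.97% of all genes. Collagen and matrix genes were below the all-gene shares of 10.4% and 5.1%, with 3 of 37 higher in light, Fbn1 (0.48 ± 0.17), Col12a1 (1.03 ± 0.38) and Col18a1 (0.60 ± 0.23), and 1 higher in dark, the collagen hydroxylase gene P4ha1 (-0.57 ± 0.18). With ZT3 left out, 0 matrix genes were higher in light and 3 higher in dark at an unadjusted p under 0.05, beside 2.97% and 3.04% of all genes.

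**Figure D4:**
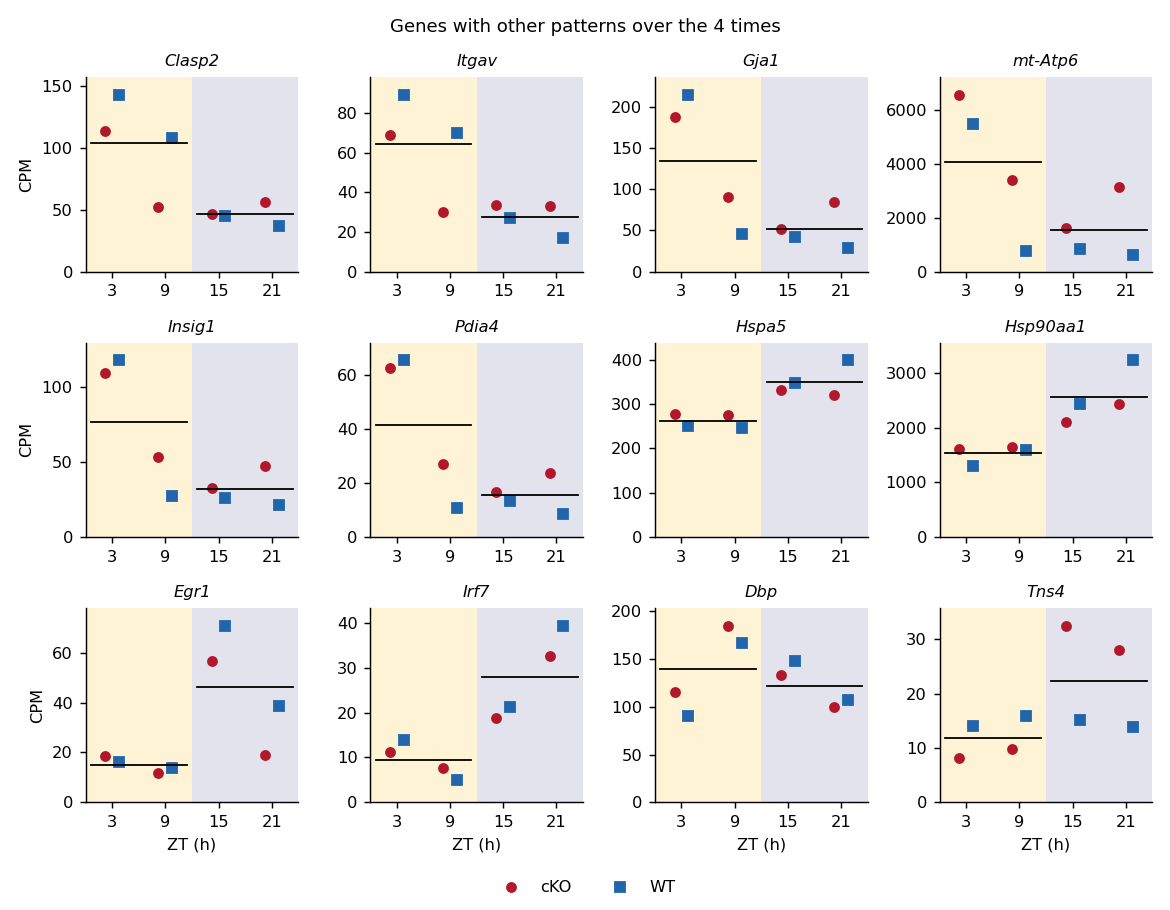
CPM of 12 genes in each library, by ZT, with cKO as circles set left of WT squares, shading and mean lines by phase. Gja1, mt-Atp6, Insig1 and Pdia4 have their 2 highest values at ZT3, Egr1 has its highest at ZT15 and Irf7 at ZT21.

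Genes of aqueous humour secretion and outflow split between the phases. Of 28 tested, 4 were higher in light and 5 higher in dark at an unadjusted p under 0.05, beside 10.4% and 5.1% of all genes. Beside Aqp1 on the dark side stood Angptl7, a secreted protein of the trabecular meshwork, with 5.1 and 8.05 CPM in cKO at ZT3 and ZT9 and 12.6 and 11.1 CPM in WT in the light phase, against 19 and 67.1 CPM in cKO at ZT15 and ZT21 and 17.8 and 32.2 CPM in WT in the dark phase. The dark values of Angptl7 were highest at ZT21 in both genotypes, its difference was -1.89 ± 0.49 (-2.71 in cKO and -1.08 in WT), and DESeq2 gave an adjusted p of 0.00719. On the light side stood Gja1 and Ltbp2, a microfibril protein of the ciliary body, with 16.1 ± 5.99 CPM in light and 9.02 ± 2.73 CPM in dark (SD, n = 4 each). Without both ZT3 libraries the list had 0 members higher in light and 2 higher in dark at an unadjusted p under 0.05, beside 2.97% and 3.04% of all genes.

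Core clock genes are known to peak at different hours. Of 9 genes of the Clock and Arntl arm with its nuclear receptors, 1 was higher in light at an unadjusted p under 0.05, Nr1d2, a nuclear receptor of the clock's stabilizing loop, at 136 ± 21.5 CPM in light and 101 ± 14.2 CPM in dark. Among 8 genes of the Per and Cry arm, 0 were at this level in either direction, and with so few genes both counts are near the 10.4% and 5.1% of all genes. Arntl, the partner of Clock, averaged 55.3 ± 4.36 CPM in light and 54.6 ± 5.63 CPM in dark, and Per2 20.2 ± 2.22 and 19.9 ± 1.88 CPM, differences of 0.02 and 0.02 (log2) that changed sign when single libraries were left out. Per1, a light-responsive repressor, averaged 38.3 ± 5.33 CPM in light and 30.7 ± 3.61 CPM in dark. Dbp, a clock output factor, had 116 and 185 CPM in cKO at ZT3 and ZT9 and 89.8 and 166 CPM in WT in the light phase, against 133 and 99.9 CPM in cKO at ZT15 and ZT21 and 148 and 107 CPM in WT in the dark phase. Its values within light differed more than its phase means did, by -0.78 (ZT3 minus ZT9) against 0.19. Npas2, a paralogue of Clock, had its highest values at ZT3, with 4.02 and 1.27 CPM in cKO at ZT3 and ZT9 and 6.66 and 1.58 CPM in WT in the light phase, against 1.25 and 2 CPM in cKO at ZT15 and ZT21 and 0.904 and 1.28 CPM in WT in the dark phase. Nfil3, the repressor that binds the same D-box as Dbp, was a both-times gene, with 11.7 and 13.5 CPM in cKO at ZT3 and ZT9 and 10.7 and 14.7 CPM in WT in the light phase, against 19.4 and 17.2 CPM in cKO at ZT15 and ZT21 and 21.8 and 23.7 CPM in WT in the dark phase, and a difference of -0.69 ± 0.14 (DESeq2 adjusted p 0.0139). Ypel2 was higher in light, at 106 ± 41.7 CPM in light and 46.1 ± 12.9 CPM in dark. Of 10 clock output genes tested, Ypel2 alone was higher in light and Nfil3 alone higher in dark at an unadjusted p under 0.05. With so few genes both counts are near the 10.4% and 5.1% of all genes.

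Of 27 glucocorticoid-responsive genes, 0 were higher in light and 4 higher in dark at an unadjusted p under 0.05 (median -0.03). Over all genes these shares were 10.4% and 5.1%. Without both ZT3 libraries 4 were higher in dark, beside 3.04% of all genes. Sult1a1, a sulfotransferase, had 5.87 and 6.5 CPM in cKO at ZT3 and ZT9 and 6.84 and 9.01 CPM in WT in the light phase, against 13.1 and 10.4 CPM in cKO at ZT15 and ZT21 and 13.3 and 10.9 CPM in WT in the dark phase, with no overlap and a difference of -0.93 in cKO and -0.61 in WT. Fkbp5, a co-chaperone of the glucocorticoid receptor, had 19.3 and 22.2 CPM in cKO at ZT3 and ZT9 and 21.8 and 19.6 CPM in WT in the light phase, against 29.5 and 19.6 CPM in cKO at ZT15 and ZT21 and 44.5 and 25.6 CPM in WT in the dark phase. Its dark mean rested on ZT15, where both genotypes were above all other libraries. Hif3a (-0.60 ± 0.19) and Cebpd (-0.46 ± 0.15) had unadjusted p of 0.0129 and 0.0164. Genes of fasting and feeding had 3 of 23 higher in light and 4 higher in dark, beside 10.4% and 5.1% of all genes. Cpt1a, which admits long fatty acids to mitochondria, averaged 171 ± 14.8 CPM in light and 122 ± 8.79 CPM in dark (DESeq2 adjusted p 0.0262), Lpl, the lipase of circulating triglyceride, 34 ± 8.48 and 47.5 ± 10.2 CPM, and Ppara, the fatty acid receptor, 10.5 ± 2.62 and 14.3 ± 2.18 CPM. Foxo3 was among those set apart at ZT3 (0.81 ± 0.30).

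Interferon-response genes had 1 of 27 higher in light, Oas2 (1.08 ± 0.42), and 3 higher in dark at an unadjusted p under 0.05, beside 10.4% and 5.1% of all genes. Irf7, the master factor of interferon induction, had 11.3 and 7.66 CPM in cKO at ZT3 and ZT9 and 14 and 5.06 CPM in WT in the light phase, against 18.9 and 32.5 CPM in cKO at ZT15 and ZT21 and 21.2 and 39.3 CPM in WT in the dark phase. Every dark value of Irf7 was above every light value, ZT21 was above ZT15 and ZT9 was lowest in both genotypes, and the difference was -1.55 ± 0.35 (DESeq2 adjusted p 0.00584). Ifit1, an RNA-binding effector, had -0.96 ± 0.25 and Ifi27 -0.34 ± 0.14. Of 41 cell cycle genes 3 were higher in light and 2 in dark, no larger a share than the 10.4% and 5.1% of all genes. The members included the spindle checkpoint kinase gene Bub1b (0.61 ± 0.17), the phosphatase gene Cdc25c (0.69 ± 0.23), the cyclin gene Ccnd3 (-0.44 ± 0.14) and the replication factor gene Mcm5 (-0.38 ± 0.15). Cirbp, the cold-inducible RNA-binding protein, had 119 and 91.8 CPM in cKO at ZT3 and ZT9 and 103 and 46.5 CPM in WT in the light phase, against 44.4 and 62.9 CPM in cKO at ZT15 and ZT21 and 43.8 and 39.3 CPM in WT in the dark phase. Its light values were above its dark values within each genotype, but WT ZT9 was below cKO ZT21. Of 3 cold-inducible genes tested, 2 had a positive and 1 a negative difference. Only 1, Cirbp, was at an unadjusted p under 0.05, beside 10.4% of all genes higher in light. Rbm3, also cold-inducible, went the other way, with a DESeq2 log2 difference of -0.11 (adjusted p 0.781).

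Of 20 rod phototransduction genes 2 were higher in light and 1 higher in dark at an unadjusted p under 0.05 (median -0.02), about the 10.4% and 5.1% of all genes, and the 8 rod markers had 0 in either direction. Gucy2e, the guanylate cyclase that restores cyclic GMP, averaged 280.4 ± 69.7 CPM in light and 189 ± 15.1 CPM in dark (SD, n = 4 each). Rgs9, which speeds shut-off of the rod G protein, averaged 275 ± 50.6 and 203 ± 14.5 CPM, and its partner Gnb5 253 ± 22.4 and 334 ± 53.4 CPM, so these 2 members of a complex lay on opposite sides. Of 13 cone phototransduction genes, 0 were higher in light and 1, Arr3, higher in dark at an unadjusted p under 0.05. Over all genes these shares were 10.4% and 5.1%. Of the 13, 8 had a positive and 5 a negative difference (median 0.04, range -0.44 to 0.75). Arr3, cone arrestin, had 60.7 ± 10.8 CPM in light and 82.1 ± 12.2 CPM in dark. In the visual cycle, 2 of 15 genes were higher in light and 1 higher in dark at that level, near the 10.4% and 5.1% of all genes. Rdh11, a retinol dehydrogenase, had -0.40 ± 0.11. Lrat, which esterifies retinol in pigment epithelium, had 0.75 ± 0.28, and Rlbp1, a retinal carrier of pigment epithelium and Müller glia, 0.63 ± 0.27. Genes of outer segment uptake and lysosomes had 2 of 26 higher in light, a smaller share than the 10.4% of all genes, namely the integrin subunit gene Itgav (1.20 ± 0.35) and the protease gene Ctss (1.09 ± 0.42), both apart at ZT3. There were 3 higher in dark, beside 5.1% of all genes, among them the autophagy gene Map1lc3a (-0.38 ± 0.15) and the lysosomal factor gene Tfeb (-0.34 ± 0.14).

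Markers of other cell types held members in both directions at an unadjusted p under 0.05, beside 10.4% of all genes higher in light and 5.1% higher in dark. The counts for light and dark were 1 and 1 of 8 for bipolar cells, 1 and 1 of 8 for pigmented cells and 2 and 0 of 10 for vessels. They were 1 and 0 of 12 for amacrine and ganglion cells and 0 and 1 of 7 for fibroblasts. Of 8 markers of Müller glia, 7 were higher in light (median 0.38), 1 of them, Rlbp1, at an unadjusted p under 0.05. At that level 5 were higher at ZT3 than at ZT9, beside 14.2% of all genes. The bipolar cell gene Prkca averaged 222 ± 19.7 CPM in light and 183 ± 1.11 CPM in dark. The amacrine gene Gad2 had 0.67 ± 0.21, the pericyte gene Rgs5 1.17 ± 0.44, the endothelial receptor gene Kdr 0.31 ± 0.12, the fibroblast gene Ogn -0.35 ± 0.14 and the melanocyte genes Tyr 0.31 ± 0.13 and Oca2 -0.34 ± 0.11. Of 18 lens markers 1, Crybb2 (0.91 ± 0.37), was higher in light, 0 were higher in dark and 13 had negative differences. Cornea markers had 0 of 12 in either direction. The erythrocyte gene Slc4a1 had -1.51 ± 0.50 at levels of at most 2.33 CPM.

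**Figure D5:**
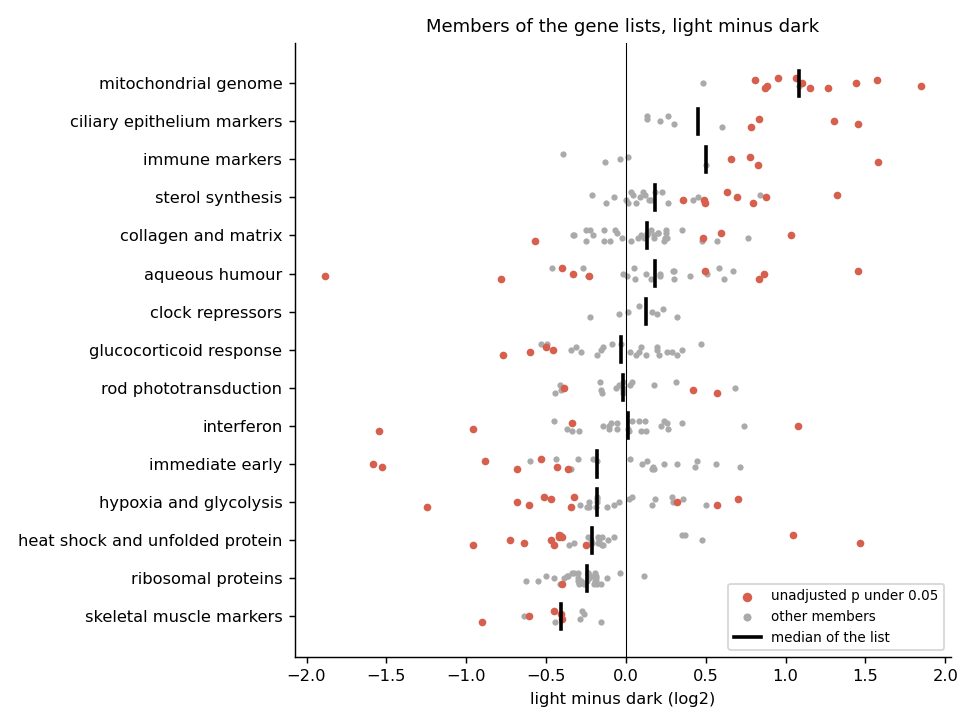
Light minus dark difference (log2) of every tested member of 15 gene lists; red points had an unadjusted p under 0.05, grey points did not, and bars mark list medians. The medians of the lists drawn run from 1.09 for the mitochondrial genome to -0.41 for skeletal muscle markers, beside 0.02 for all genes. Erythrocyte markers, not drawn, had a lower median of -1.18.

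Genes with a single time apart were named by smallest p for each time. At ZT3, Clasp2, a microtubule-binding protein, had 114 and 52.4 CPM in cKO at ZT3 and ZT9 and 143 and 108 CPM in WT in the light phase, against 46.9 and 56.3 CPM in cKO at ZT15 and ZT21 and 45.3 and 36.6 CPM in WT in the dark phase. Its cKO value at ZT9 lay below the cKO value at ZT21, whereas WT ZT9 stayed above both WT dark values. Ippk (1.18 ± 0.29) shared this form, while the cKO value of Mtx3 (1.12 ± 0.29) at ZT9 lay below the cKO value at ZT15. DESeq2 called all 3, with adjusted p of 0.0192 for Clasp2 and 0.0335 for Mtx3. At ZT9, Ahrr, a repressor of the aryl hydrocarbon receptor, had 23.4 and 23.5 CPM in cKO at ZT3 and ZT9 and 23.2 and 28.4 CPM in WT in the light phase, against 14 and 13.1 CPM in cKO at ZT15 and ZT21 and 23.6 and 21 CPM in WT in the dark phase, and Hs6st3 had 0.75 ± 0.26. Tas1r1, a taste receptor subunit, had its lowest values at ZT9 and stood high in the WT dark libraries alone, with 0.83 and 0.496 CPM in cKO at ZT3 and ZT9 and 1.65 and 0.632 CPM in WT in the light phase, against 0.737 and 0.735 CPM in cKO at ZT15 and ZT21 and 7.08 and 7.75 CPM in WT in the dark phase. At ZT15, Btaf1 (0.64 ± 0.19), Scn7a (0.83 ± 0.25) and Trim23 (0.50 ± 0.16) had their lowest values. At ZT21, Grb10 (0.79 ± 0.20), Ltn1 (0.54 ± 0.16) and Tmx3 (0.71 ± 0.22) did. The 2 dark times were not shown to differ in the named ZT15 and ZT21 genes, whose class rests on rank. Their ZT15 minus ZT21 differences ran from -0.20 for Scn7a to 0.15 for Grb10, with unadjusted p in edgeR from 0.53 to 0.91. DESeq2 called none of the 9 genes apart at ZT9, ZT15 or ZT21, and its smallest adjusted p among them was 0.0525 for Grb10.

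The phase difference was not shown to differ between genotypes for any gene. In the fit with a phase term in each genotype, 0 genes passed the interaction test at an adjusted p under 0.05 (0% of genes, smallest adjusted p 0.876), and 814 had an unadjusted p under 0.05 (5.29%). Tns4, a focal adhesion protein, had the smallest interaction p. It had 8.1 and 9.76 CPM in cKO at ZT3 and ZT9 and 14 and 15.8 CPM in WT in the light phase, against 32.5 and 27.9 CPM in cKO at ZT15 and ZT21 and 15.1 and 13.9 CPM in WT in the dark phase, so that the dark values of cKO stood above all other libraries (cKO minus WT -1.80 ± 0.25, unadjusted p 0.000139). Lama3, a laminin chain of epithelial basement membranes, had 8.35 and 6.12 CPM in cKO at ZT3 and ZT9 and 14.1 and 16.8 CPM in WT in the light phase, against 13 and 10.4 CPM in cKO at ZT15 and ZT21 and 7.38 and 6.69 CPM in WT in the dark phase. Light was below dark in cKO and above dark in WT. Sestd1 had a cKO minus WT difference of -1.83 ± 0.34. Across genes, the light minus dark differences of cKO and WT had a Pearson r of 0.375 and a Spearman rho of 0.464, a description across genes that are not independent.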

How the data were processed

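Whole-eye RNA of 3 mice was pooled for each genotype and time, per the labels' protocols, and the authors deposited 1 table of raw counts per gene symbol. No source used here gives the aligner, counter, strand setting, build or annotation, and antisense, overlapping and near-identical genes are uncertain. Of 32544 rows, 27 were date-like symbols (0.123 to 0.145% of counts) and were left out. Genes passed edgeR's filterByExpr, were scaled by TMM and tested with edgeR 4.0.16 (R 4.3.3; quasi-likelihood, genotype plus phase, 5 residual degrees of freedom), with p-values adjusted over all 15373 genes by Benjamini and Hochberg. DESeq2 1.42.0 and limma-voom 3.58.1 were alternatives, as were other scalings, no filter and left-out libraries, times or genotypes. Every mean and SD is over the 4 libraries of a phase, and values printed as CPM are TMM-scaled.

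Gene lists and naming rules were chosen with earlier results of these data known. Text genes were the 12 both-times genes per direction and the 3 genes per single time with the smallest p at least 2 CPM on average and a symbol that is no clone or predicted-gene name, the 3 with the smallest interaction p, and up to 4 members per list at an unadjusted p under 0.05 or described by role. Other members were named after their values were seen. Removal of the exonic-length trend was chosen after seeing the data. A planned comparison of motif shares between gene classes is void, because RefSeq promoters matched 76.7% of tested genes. Results for a few genes are not reported here.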

Additional observations from a re-analysis of the deposited data

Results flagged for a closer look

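Slc4a11, the corneal endothelial transporter gene, had 27.5 CPM in WT ZT9, below the other 3 light libraries (36.5 to 37.1 CPM). Ahrr had 28.4 CPM in WT ZT9, above the other light libraries (23.2 to 23.5 CPM). Hsp90aa1 had 1299 CPM in WT ZT3, below the other light libraries (1597 to 1652 CPM). Bub1b had 19.1 CPM in cKO ZT3, above the other light libraries (13.5 to 14.1 CPM). Mcm5 had 5.21 CPM in WT ZT9, above the other light libraries (4.52 to 4.59 CPM). Atp2a1, a muscle marker, had 232 CPM in cKO ZT9, above the other light libraries (152 to 161 CPM). Slc4a1, an erythrocyte marker, had 2.33 CPM in WT ZT15, above the other dark libraries (0.735 to 0.925 CPM). These 7 values stood apart from the rest of their group of 4 by Dixon's test, out of 250 groups examined (2.8%), and chance flags about 1 in 20 groups.

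The light minus dark difference of Lama3 had opposite signs in the genotypes, with each cKO light value below each cKO dark value and each WT light value above each WT dark value. The cKO minus WT difference was -1.82 on the log2 scale, and the interaction did not pass edgeR's adjusted threshold (adjusted p 0.876).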

How the results depend on the processing

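Counts of genes over the whole table depended on the times and libraries used. No gene passed edgeR's adjusted threshold under limma-voom, either other scaling, time as a factor, a phase term per genotype, either genotype alone, removal of the exonic-length trend or any left-out library, while DESeq2 called 62 genes for light and 64 for dark, no filter on low counts gave 2 and 5, and leaving out both ZT9 libraries gave 3013 and 2893. At an unadjusted p under 0.05, the counts for light and dark, beside 1604 and 784 in the full fit, were 3799 and 3834 without ZT9, 468 and 479 without ZT3, 314 and 164 without ZT15 and 432 and 236 without ZT21. They were 407 and 514 in cKO alone, 1342 and 294 in WT alone and 2190 and 2024 with time as a factor. Leaving out 1 library each gave 507 to 2479 and 365 to 2033. Both-times genes numbered 15 and 21 where phases had to be 0.5 apart on the log2 scale, beside 1002 and 1012. The causes of these shifts were not tested.

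For 125 genes under 22 alternatives, 2571 of 2750 log2 differences kept their direction and side of the threshold, 154 kept the direction and passed the threshold (108 of them without ZT9, 40 by DESeq2), and 25 changed sign. With 1 library left out, Arntl ranged from -0.0249 to 0.0815, Dbp from -0.000118 to 0.36, Lama3 from -0.0464 to 0.52 and Per2 from -0.0242 to 0.10. Without ZT3 Arntl had -0.094. Without ZT9 Dbp had -0.25 and Per2 -0.0217. Without ZT15 Arntl had -0.0578. Without ZT21 Dbp had -0.00972 and Per2 -0.0578. In cKO alone Lama3 had -0.69 and Sestd1 -0.27, and in WT alone Tns4 had 0.0511, Per2 -0.14 and Arntl -0.0468. With the length trend removed Per2 had -0.0424 and Arntl -0.0824. No paired analysis was possible because the labels carry no replicate numbers and each genotype and time has 1 library. The 8 pools, not the counts in each, set the number of residual degrees of freedom, and phases of 2 times each cannot resolve a rhythm.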

Other observations

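Genes that DESeq2 called and that the naming rule did not reach were read after their values were seen. On the light side, Dusp4, a phosphatase of MAP kinases, averaged 22.4 ± 6.28 CPM in light and 9.61 ± 3.43 CPM in dark, a log2 difference of 1.26 ± 0.26 (SE). Spry4, a Sprouty protein, averaged 8.42 ± 3.16 CPM in light and 3.75 ± 0.649 CPM in dark. The splicing factor gene Srsf5 had 204 and 142 CPM in cKO at ZT3 and ZT9 and 271 and 149.9 CPM in WT in the light phase, against 96.3 and 113 CPM in cKO at ZT15 and ZT21 and 114 and 116 CPM in WT in the dark phase. Oxtr, the oxytocin receptor gene, averaged 4.96 ± 0.494 CPM in light and 2.67 ± 0.496 CPM in dark.

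On the dark side, Ctgf, a matricellular target of the YAP pathway, averaged 53.5 ± 3.94 CPM in light and 93 ± 25.8 CPM in dark. Il34, a ligand of the receptor that maintains microglia, averaged 5.13 ± 0.732 CPM in light and 8.8 ± 0.437 CPM in dark. Prss56, a serine protease of Müller glia linked to eye size, had 1.53 and 1.54 CPM in cKO at ZT3 and ZT9 and 2.08 and 1.18 CPM in WT in the light phase, against 3.32 and 3.74 CPM in cKO at ZT15 and ZT21 and 2.94 and 4.05 CPM in WT in the dark phase. Its log2 difference was -1.14 ± 0.24. The striated muscle genes Tcap (-0.93 ± 0.17) and Lmod2 (-1.40 ± 0.36) were called in the same direction as the myosins. Tpi1, a glycolytic enzyme gene, had a log2 difference of -0.59 ± 0.15, and Ak4, an adenylate kinase gene of the hypoxia response, -0.83 ± 0.18.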
